A study of Rattus norvegicus with 4 samples.

Results

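The ubiquitin-specific proteases (USPs) were the members of this gene family whose rat symbol is Usp followed by a number, with or without x or l. The RefSeq gene table held 50 such genes, and 33 of them had at least 1 m6A peak in either list, out of 8729 genes with a peak in all. The members were chosen by symbol. In m6A-seq, fragments bound by an m6A antibody are sequenced beside the input RNA, and a peak marks a stretch of transcript where the antibody enriched fragments over input. Neonatal rat cardiac fibroblasts (CFs), primary cells from the hearts of healthy Sprague-Dawley pups within 3 days of birth, separated from other heart cells by their adhesion, received either an empty pcDNA plasmid (Vector, genotype given as WT) or the same plasmid with rat FTO cDNA (FTO, genotype given as FTO overexpression), and 48 h passed before harvest. FTO is an m6A demethylase. Each group had 1 m6A-IP and 1 input library, from which 1 list of peaks per group was deposited, so that differences between the groups have no replicate error and no test was run. A listed peak has a number, a length in bp, a transcript and a gene ID, and no position or height was used. The sequencing depth is unknown, and no pooling of pups, sex of the cells or exposure to hypoxia is stated for these libraries.

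USPs are cysteine proteases that remove ubiquitin from proteins and so spare them from the proteasome or change their activity and place in the cell. They form the largest family of deubiquitinases, and single members act on TGF-beta receptors and SMAD proteins, on histones, on DNA repair factors and on receptors in endosomes. m6A is laid down on mRNA mostly near the stop codon and in long exons, and it can change the stability and translation of the transcript.

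The lists cover the whole transcriptome, and several of their features bear on the values of the USP genes. The FTO list was shorter than the Vector list, with 17796 peaks against 21249, a ratio of 0.837. Fto, the gene on the plasmid, was listed with 3 Vector peaks and 9 FTO peaks. Of 8 fibroblast markers, 4 had a peak, namely Pdgfra, Tcf21, Ddr2 and Postn, while Col1a1, Col1a2, Col3a1 and Vim had 0 in both lists. All 5 cardiomyocyte markers had a peak, Myh6 with 7 in each list, Myh7 with 8 and 5, Tnnt2 with 4 and 7, Ryr2 with 2 and 5 and Actn2 with 1 and 0, and the 3 endothelial markers had none. A peak shows that a transcript was listed and gives no level, and the part of other cell types in the results was not tested. In RNA from whole cultures, fewer cells of a type and less RNA per cell cannot be told apart. Peak numbers can also follow the level of a transcript, which was not measured here.

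The USP genes together held 112 Vector peaks and 83 FTO peaks, a ratio of 0.741 against 0.837 over all genes. Peaks were fewer in the FTO list for 19 of the 33 genes, as many for 11 and more for 3. Over all genes, 41.4% had fewer FTO peaks, 37.4% as many and 21.2% more. The USP genes had a higher mean number of peaks per listed gene, 3.5 for Vector and 2.77 for FTO against 2.69 and 2.44 over all genes. The median was 2 peaks in both lists for the USP genes and for all genes. Among genes with a mean of at least 3 peaks over both lists, FTO peaks were fewer for 9 of 12 USP genes, beside 49.1% of all such genes, and more for 2, beside 20.2%. The median difference of the USP genes was -1 peak, and that of all genes was 0. Each FTO number was also scaled up by 1.19 to offset the shorter list. Then 11 USP genes had at least 1 peak fewer in the FTO list, 33.3% beside 26.0% of all genes. On the same scale 3 USP genes had at least 1 peak more, 9.09% beside 23.2% of all genes. At least 2-fold fewer FTO peaks were listed for 10 USP genes, 30.3% beside 29.3% of all genes, which is a share near that of all genes.

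**Figure D1:**
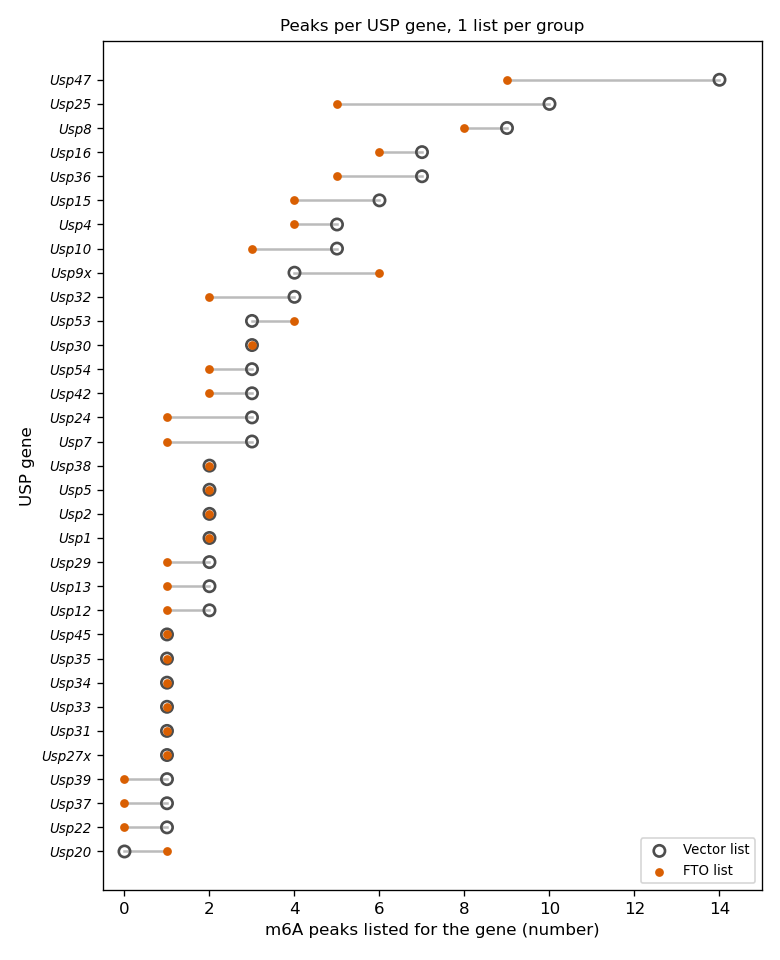
Number of m6A peaks of each of the 33 USP genes with a peak (rows), with open circles for Vector and filled points for FTO, from 1 list per group. The FTO point lies left of the Vector point for 19 genes, on it for 11 and right of it for 3, and the longest lines are those of Usp47, from 14 to 9, and Usp25, from 10 to 5.

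Usp47, which acts on DNA polymerase beta in base excision repair, had the most peaks of the family, 14 for Vector and 9 for FTO. In listed order its Vector peaks were 401, 168, 132, 56, 113, 105, 208, 120, 778, 176, 119, 131, 131 and 1418 bp long. Its FTO peaks were 336, 132, 56, 113, 778, 176, 119, 131 and 1397 bp long. The FTO list thus repeated 7 Vector lengths and skipped the run of 105, 208 and 120 bp. It also lacked the length of 168 bp and the repeat of 131 bp. Its first and last peaks were shorter than those of the Vector list, and whether these are the same peaks is not known.

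Usp25, a deubiquitinase of the Wnt regulator tankyrase and of innate immune signalling factors, showed as large a difference, from 10 peaks to 5. The Vector peaks measured 214, 78, 148, 163, 87, 138, 77, 77, 79 and 1375 bp in listed order, and the FTO peaks 214, 78, 148, 77 and 673 bp. The first 3 lengths were the same in both lists, most short peaks of the later stretch were listed for Vector alone, and the last and longest peak was 1375 bp for Vector and 673 bp for FTO. These longest peaks were assigned to different transcripts of Usp25, so they need not be the same peak. Its close relative Usp28 had no peak in either list. Without Usp47 and Usp25, the remaining USP genes had 88 Vector peaks and 69 FTO peaks, a ratio of 0.784.

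The order of the peaks within a gene was taken from the peak numbers, and no position was used to check it. Between genes the numbers kept to the chromosomes, since 98.3% of steps from 1 gene to the next in the Vector list, and as large a share in the FTO list, stayed on the same chromosome of the GRCr8 annotation. A peak was called paired when the other list held a peak of the same gene and the same length. For the 16 USP genes with at least 2 pairs, all 50 pairs stood in the same order in both lists, and over all genes this held for 99.7% of such genes. An equal length in the same order is a description and does not show that the peaks cover the same bases.

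**Figure D2:**
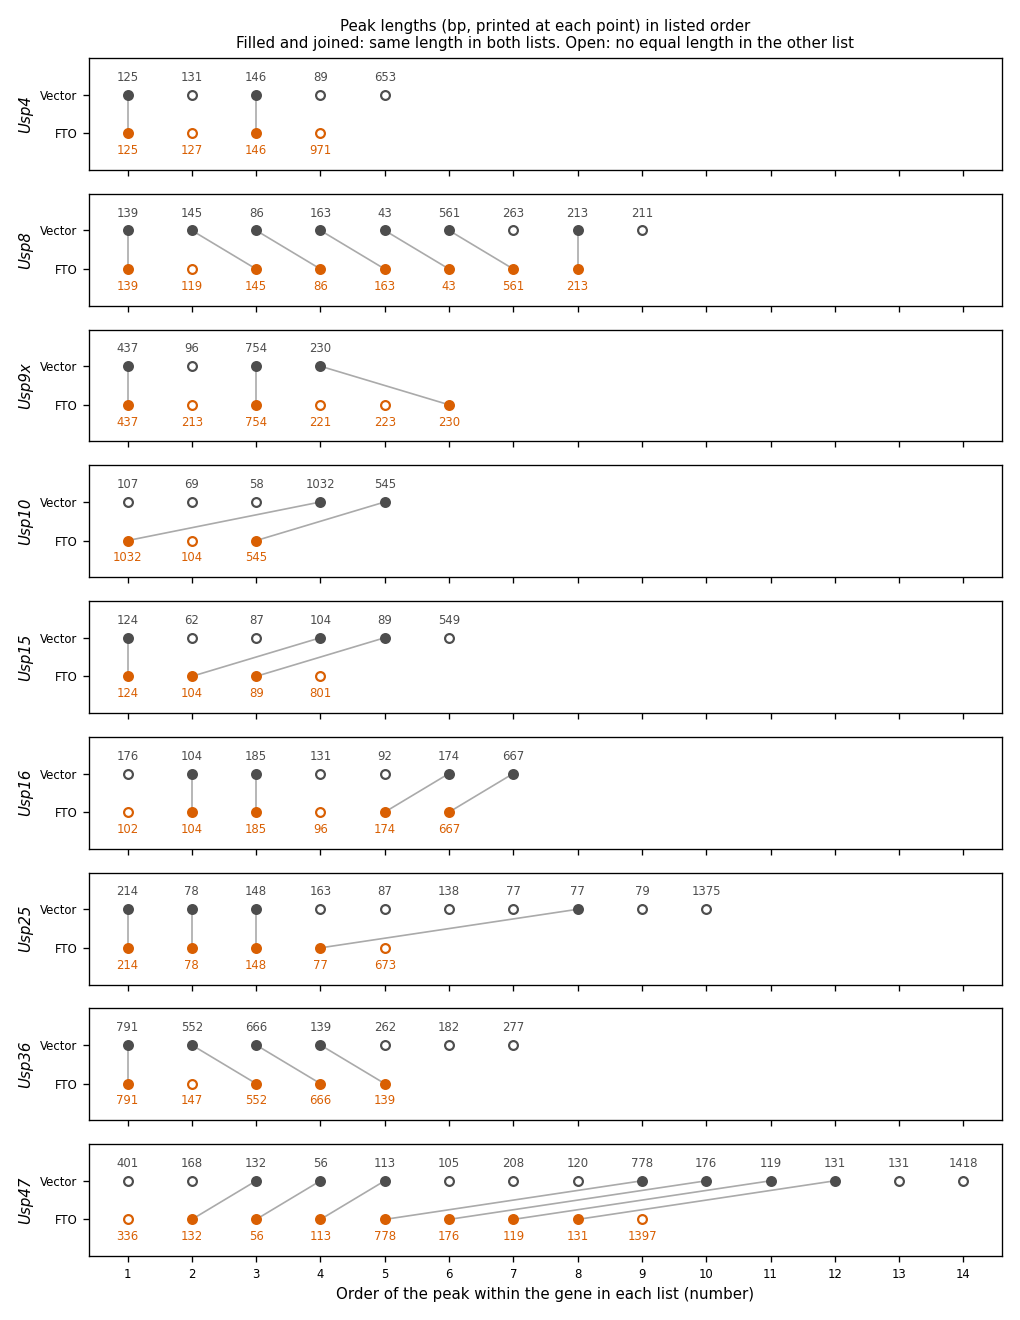
Peak lengths in bp (numbers at the points) of the 9 USP genes with at least 5 peaks in a list, by the order of the peaks within the gene (x axis), with the Vector list above and the FTO list below in each panel. Filled points joined by a line have the same length in both lists and open points have no partner, and the lines never cross.

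Among the USPs that act on TGF-beta signalling, the paralogues Usp4 and Usp15 both had fewer peaks and a longer last peak in the FTO list. Usp4, which acts on the TGF-beta type I receptor, had Vector peaks of 125, 131, 146, 89 and 653 bp and FTO peaks of 125, 127, 146 and 971 bp. Usp15, which joins the receptor complex through SMAD7, had Vector peaks of 124, 62, 87, 104, 89 and 549 bp and FTO peaks of 124, 104, 89 and 801 bp. In each of these genes the last peak was the longest, and it was 318 bp longer in the FTO list for Usp4 and 252 bp longer for Usp15. Their paralogue Usp11 had no peak in either list.

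Usp9x, a large deubiquitinase of SMAD4 and the survival factor MCL1, went the other way in number, with 4 Vector peaks and 6 FTO peaks. Its Vector peaks were 437, 96, 754 and 230 bp long, and its FTO peaks 437, 213, 754, 221, 223 and 230 bp. Around the 3 paired peaks of 437, 754 and 230 bp, an FTO peak of 213 bp stood where the Vector list had one of 96 bp, and FTO peaks of 221 and 223 bp stood ahead of the last pair. Usp9x was the gene with the largest gain of the family.

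In the rest of the list of signalling and other regulatory USPs, several genes kept the same lengths. Usp2, a deubiquitinase of cyclin D1, had peaks of 854 and 176 bp in both lists. Usp38 had peaks of 880 and 1360 bp in both. Usp34, a deubiquitinase of the Wnt scaffold axin, had 1 peak of 329 bp in each list, and Usp35 had 1 of 1267 bp. Usp24 and Usp42 kept part of their peaks, Usp24 with 573, 108 and 111 bp in the Vector list and 573 bp in the FTO list, and Usp42 with 705, 1485 and 302 bp and then 705 and 1485 bp. Usp18, which removes the ubiquitin-like ISG15, had no peak. Of the 10 genes of this list with a peak, 5 had fewer FTO peaks, 4 as many and 1 more, beside 41.4%, 37.4% and 21.2% of all genes, and their 37 Vector peaks stood beside 28 FTO peaks.

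For the membrane traffic and protein quality USPs, Usp8 held the longest common series. Usp8, which acts on receptors and sorting proteins at endosomes, had 9 Vector peaks of 139, 145, 86, 163, 43, 561, 263, 213 and 211 bp. Its 8 FTO peaks of 139, 119, 145, 86, 163, 43, 561 and 213 bp contained 7 of those lengths, without the peaks of 263 and 211 bp and with one of 119 bp added. Usp10, a partner of the stress granule protein G3BP1, had Vector peaks of 107, 69, 58, 1032 and 545 bp and FTO peaks of 1032, 104 and 545 bp. The short peaks ahead of its long peak were thus in the Vector list alone.

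Usp32 had Vector peaks of 93, 425, 289 and 87 bp and FTO peaks of 425 and 289 bp, so that its outer, short peaks were absent from the FTO list. Usp30, on the outer mitochondrial membrane, kept 3 peaks, with 110 and 207 bp in both lists and a longest peak of 1922 bp for Vector and 1949 bp for FTO. Usp33 had 1 peak of 418 bp in each list. Usp20, its close relative, was the only USP gene listed for FTO alone, with 1 peak of 448 bp, and Usp19 had no peak. Over all genes, 9.57% had peaks in the FTO list alone.

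The USPs of chromatin had 16 Vector peaks and 12 FTO peaks on 4 genes. Usp16, a deubiquitinase of histone H2A, had Vector peaks of 176, 104, 185, 131, 92, 174 and 667 bp. Its FTO peaks were 102, 104, 185, 96, 174 and 667 bp long. Usp36, a protease of the nucleolus, had Vector peaks of 791, 552, 666, 139, 262, 182 and 277 bp and FTO peaks of 791, 147, 552, 666 and 139 bp. For Usp36 the 3 Vector peaks without a partner stood together at the end of the order, and the added FTO peak of 147 bp was assigned to another transcript of the gene. Usp22, the protease of the SAGA complex, had 1 peak of 92 bp in the Vector list and none in the FTO list, whereas Usp27x, which can take its place with the same partner proteins, had 1 peak of 1881 bp in both. Usp3, Usp21, Usp44, Usp49 and Usp51 had no peak.

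Of the 6 DNA damage and replication USPs with a peak, 4 had fewer FTO peaks and 2 as many, beside 41.4% and 37.4% of all genes, and their 23 Vector peaks stood beside 14 FTO peaks, Usp47 included. Usp7, a deubiquitinase of MDM2 and p53, had Vector peaks of 127, 109 and 101 bp, of which 109 bp alone was listed for FTO. Usp1, which acts on FANCD2 and PCNA with its partner UAF1, had peaks of 692 and 1444 bp in the Vector list and of 692 and 1383 bp in the FTO list. Usp29 had 2 Vector peaks of 1393 and 531 bp and 1 FTO peak of 1544 bp. Usp45, which acts on the repair factor ERCC1, had 1 peak of 661 bp in each list, and Usp37, which supports DNA replication, had 1 peak of 256 bp for Vector and none for FTO. Usp28, Usp11 and Usp48 had none. Usp12, which is also bound by UAF1, had peaks of 214 and 102 bp in the Vector list and of 102 bp in the FTO list, and Usp46 had none.

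The remaining genes held few peaks. Of the USPs that recycle ubiquitin chains, Usp5 had Vector peaks of 126 and 187 bp and FTO peaks of 185 and 187 bp, and Usp13 had 154 and 877 bp and then 976 bp. Usp14, a deubiquitinase of the proteasome, had no peak. Usp39, a splicing factor without protease activity, had 1 Vector peak of 300 bp and no FTO peak. Usp54 had Vector peaks of 735, 378 and 1397 bp and FTO peaks of 735 and 1397 bp, and its relative Usp53 had Vector peaks of 1521, 733 and 228 bp and FTO peaks of 1828, 77, 733 and 228 bp. Both were long described as inactive proteases, and they differed in direction. Usp31 had 1 peak in each list, of 1735 and 1958 bp, and Usp17l, Usp26, Usp40, Usp43 and Usp50 had none. In all, 17 of the 50 USP genes had no peak.

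The 33 genes fell into few patterns. Identical lengths in both lists were found for 7 genes, Usp2, Usp27x, Usp33, Usp34, Usp35, Usp38 and Usp45, beside 21.0% of all genes. Fewer FTO peaks that all had a Vector partner were found for 6 genes, Usp7, Usp12, Usp24, Usp32, Usp42 and Usp54, beside 14.9% of all genes. Fewer FTO peaks with at least 1 new length among them were found for 10 genes, 30.3% beside 10.1% of all genes, and these were Usp4, Usp8, Usp10, Usp13, Usp15, Usp16, Usp25, Usp29, Usp36 and Usp47. Only a gene with at least 2 Vector peaks can show this pattern, and the USP genes held 23 such genes, 69.7% beside 52.2% of all genes. As many peaks with other lengths were found for 4 genes, Usp1, Usp5, Usp30 and Usp31, beside 16.4% of all genes. No USP gene gained FTO peaks while every Vector length was kept, beside 7.11% of all genes. Usp22, Usp37 and Usp39 were listed for Vector alone, beside 16.4% of all genes with peaks in the Vector list alone.

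Over the family, 60 pairs of equal length were found, with at least 1 pair in 26 genes, 78.8% beside 60.4% of all genes. A pair needs peaks in both lists, which 29 of the 33 USP genes and 6462 of all 8729 genes had. It is also likelier in a gene with more peaks. No partner was found for 52 of the 112 Vector peaks, a share of 46.4% (95% Wilson interval 37.5% to 55.6%), and for 23 of the 83 FTO peaks, 27.7% (19.2% to 38.2%). The shares over all genes, 42.7% and 31.6%, lay inside these intervals, which cover counting error only and treat peaks of 1 gene as independent. The paired peaks divided each of the 26 genes into stretches before, between and after them. Of the 44 unpaired Vector peaks of these genes, 18 fell in a stretch that also held an unpaired FTO peak, and 26 fell where the FTO list had none, 59.1% beside 63.4% over the 5247 genes of the lists with pairs that kept their order. Of the 19 unpaired FTO peaks, 14 shared a stretch with an unpaired Vector peak and 5 did not, 26.3% beside 47.3%. A stretch is more often shared where unpaired Vector peaks are many. The 26 USP genes held 44 of them, whereas the 5247 genes held 5233. These shares are therefore not on an equal footing, and their difference was not tested. The repeated Vector lengths of Usp25 and Usp47 could each place 1 peak otherwise.

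The lengths of the peaks differed between the lists mainly through the short ones. The median length of the USP peaks was 184 bp in the Vector list and 223 bp in the FTO list, and the middle part of the peaks, from the lower to the upper quartile, spanned 111 to 564 bp for Vector and 129 to 734 bp for FTO. Over all genes the medians were 203 and 228 bp. Of peaks under 100 bp, the USP genes had 19 for Vector and 8 for FTO, a ratio of 0.421 against 0.705 over all genes. Of peaks of 500 bp or more they had 33 and 32, a ratio of 0.97 against 0.953. Summed over the peaks, the listed length was 45876 bp for Vector and 41917 bp for FTO, a ratio of 0.914. The ratio of peak numbers was 0.741. Over all genes the ratio was 0.932 for summed length and 0.837 for peak number.

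An FTO partner of equal length was found for 6 of the 19 Vector peaks under 100 bp, 31.6% (95% Wilson interval 15.4% to 54.0%), beside 49.3% over all genes. For Vector peaks of 500 bp or more it was found for 22 of 33, 66.7% (49.6% to 80.2%), beside 56.9%. Both intervals held the share of all genes, so that a departure of the USP genes from all genes in these length classes was not detectable with these numbers of peaks. From 100 bp to under 200 bp the share was 56.4% and from 200 bp to under 500 bp 47.6%, beside 56.7% and 62.8%.

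**Figure D3:**
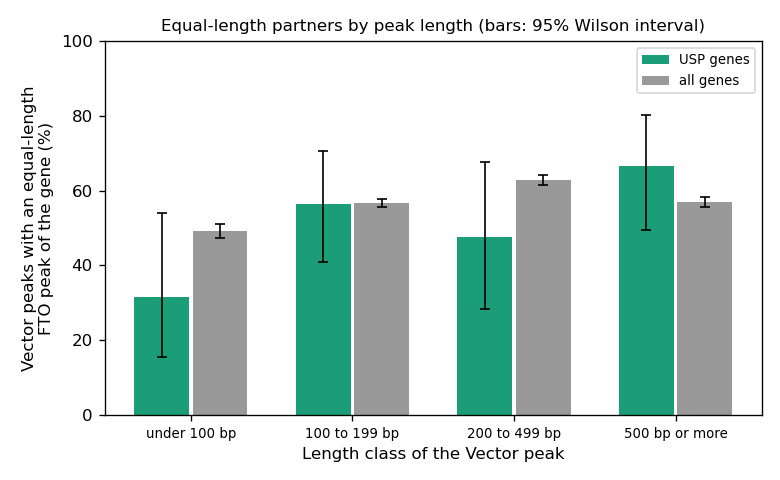
Share of Vector peaks with an equal-length FTO partner in the same gene (y axis, %) by length class of the Vector peak (x axis), for the USP genes (green) and all genes (grey), with 95% Wilson intervals as error bars. The USP share runs from 31.6% under 100 bp to 66.7% at 500 bp or more, and its intervals are wide because the classes hold 19 to 39 peaks.

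The longest peak of a gene often kept its length. In the 29 USP genes with peaks in both lists it had the same length in 17, 58.6% beside 60.6% of all genes, was longer in the FTO list in 7, 24.1% beside 20.2%, and shorter in 5, 17.2% beside 19.2%. The gains were 318 bp for Usp4, 307 bp for Usp53, 252 bp for Usp15, 223 bp for Usp31, 151 bp for Usp29, 99 bp for Usp13 and 27 bp for Usp30. It was shorter in the FTO list for Usp25, Usp12, Usp1, Usp47 and Usp7, with FTO minus Vector differences of -702, -112, -61, -21 and -18 bp, of which that of Usp25 is between different transcripts. In genes with at least 3 peaks, the longest peak stood first or last in 11 of 16 USP genes for Vector and in 9 of 11 for FTO, beside 73.9% and 73.5% of all such genes. Which end of the transcript this is was not determined.

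**Figure D4:**
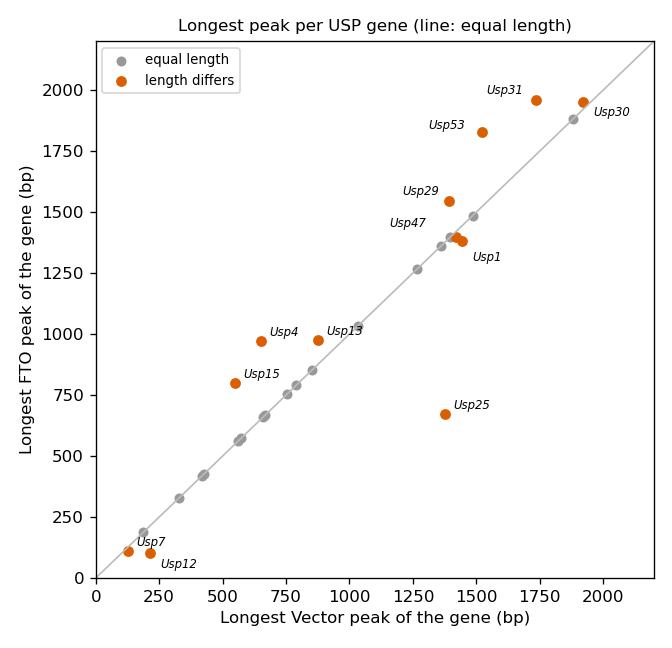
Longest Vector peak (x axis, bp) and longest FTO peak (y axis, bp) of the 29 USP genes with peaks in both lists, with the line of equal length. The 17 grey points lie on the line, 7 orange points lie above it and 5 below it, with Usp25 farthest below at 1375 and 673 bp and Usp4 farthest above at 653 and 971 bp.

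The other deubiquitinases were set beside the USPs. In the families with other folds, 25 of 34 genes had a peak, with 55 Vector peaks and 42 FTO peaks. FTO peaks were fewer than Vector peaks for 12, equal in number for 10 and more for 3, beside 41.4%, 37.4% and 21.2% of all genes, and the median difference was 0. The largest difference was that of Uchl5, a deubiquitinase of the proteasome, with 5 and 2 peaks, and the largest gains, of 1 peak, were those of Otud4, Otud5 and Yod1. Of the USP-fold genes with other symbols, Cyld had 1 Vector peak and 0 FTO peaks, Uspl1 had 3 and 2, and Pan2, a subunit of an mRNA deadenylase, had 0 and 2.

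Of 10 genes whose proteins bind USPs or are deubiquitinated by them, 8 had a peak, with 18 Vector peaks and 12 FTO peaks. Peaks were fewer in the FTO list for 5 of these and as many for 3, beside 41.4% and 37.4% of all genes. Wdr48, which encodes UAF1, had the largest difference, with 2 Vector peaks and 0 FTO peaks. Of 20 genes of ubiquitin-activating enzymes and large ubiquitin ligases, 15 had a peak, with 62 Vector peaks and 48 FTO peaks. Of these, 10 had fewer FTO peaks, 4 had as many and 1 had more, where 41.4%, 37.4% and 21.2% of all genes did, and the largest differences were those of Ubr4, with 6 and 3 peaks, and Nedd4l, with 4 and 1. Birc6, with 2 and 4 peaks, was the gene with more. No difference between the USP genes and these lists was tested.

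**Figure D5:**
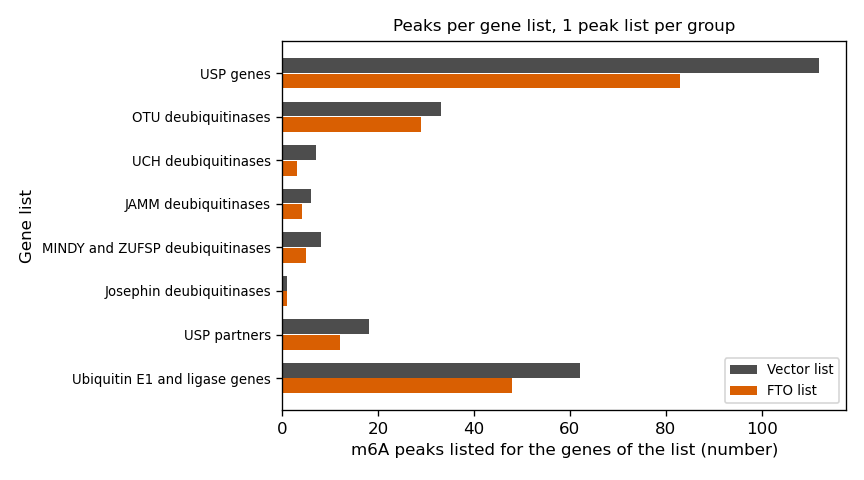
Number of listed peaks (x axis) of Vector (grey) and FTO (orange) for the USP genes, the other deubiquitinase families, the USP partners and the ubiquitin-activating and ligase genes. Of the lists drawn, which leave out Cyld, Uspl1 and Pan2, the FTO bar is shorter than the Vector bar in all but the Josephin family, which has 1 peak in each, and the USP genes hold 112 and 83 peaks.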

How the data were processed

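Per the labels, m6A-IP and input libraries of the Vector and FTO groups were made from neonatal rat CFs, and the submitters' processing notes name cutadapt 1.9.3, HISAT2 2.0.4 and the build rn6. The peak names carry the prefix MACS, and its version and threshold are not given in the sources used here. For each group, 1 list of peaks was deposited with their lengths in bp, which are not normalized. The depth per library is unknown, and 1 pair of libraries per group gives no error, so no test was run.

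Symbols came from the RefSeq table of GRCr8, which lacked 234 of 7723 Vector gene IDs and 225 of 7145 FTO gene IDs, and 248 and 213 peaks had no gene ID, so a USP peak among them would be missed. The gene was the gene ID or, without one, the transcript. Peaks were paired 1 to 1 by gene and length, on the same transcript first, and followed in the order of their numbers. The pairing was tested on simulated lists. The members and gene lists were chosen with earlier results of these data known. By the rule for named genes, all lengths were given for genes with 5 or more peaks or a difference of 3 or more, and the lengths of the other USP genes were added after their values were seen. Of the other gene lists, the largest differences were named. Shares over all genes are given beside those of the USP genes. A planned description by protein length was not made, because no protein lengths were used here. Python 3.11.15, pandas 2.3.3 and matplotlib 3.10.9 were used.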

Additional observations from a re-analysis of the deposited data

How the results depend on the processing

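The 12 results on the USP genes were recomputed under 9 alternatives, of which leaving out Usp47 and Usp25 was chosen after seeing the data, and 60 of 72 values stayed within 1.5 times the count or within the 95% interval of the share or median. Keeping peaks of at least 200 bp left 54 Vector peaks, 47 FTO peaks and 32 pairs, with medians of 613 and 692 bp. FTO peaks were then fewer for 9 of 30 genes, beside 27.5% of all genes. They were more for 2, beside 18.6% of all genes, and as many for the other 19. Most of the difference in number thus lay in shorter peaks. The same direction was seen over all genes, with a ratio of FTO to Vector peaks of 0.705 under 100 bp and 0.953 at 500 bp or more. With FTO numbers scaled by the list sizes, 11 genes had fewer by at least 1 peak, beside 26.0% of all genes. By the same measure 3 genes had more, beside 23.2% of all genes, and the other 19 differed by less than 1 peak. When pairs needed no equal length, 29.5% of Vector and 4.82% of FTO peaks were unpaired. These shares follow from the peak numbers per gene alone and give no check of the pairing. With Cyld, Uspl1 and Pan2 added, 2 genes were listed for FTO alone. Leaving out Usp47 and Usp25 kept all 12 results within these limits. Both had fewer FTO peaks, so the only gene count that could change was that of genes with fewer FTO peaks, from 19 to 17. The ratio of peak numbers moved from 0.741 to 0.784, beside 0.837 over all genes. No paired analysis was possible because 1 list per group leaves no replicates to pair or leave out. The unknown depth limits every difference in peak number.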
